A study of Mus musculus with 6 samples.

Results

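Imprinted genes are those of which mainly the maternal or mainly the paternal copy is transcribed. For many of them the choice is set in the germ line by DNA methylation at imprinting control regions. Clusters of such genes often share 1 control region and hold a long noncoding RNA. In mouse embryos many of them set growth, with paternally expressed members such as Igf2 known for promoting it and maternally expressed members such as Cdkn1c and Grb10 known for restraining it. An array measures the summed RNA of both copies, so the values here say nothing of which allele was read.

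The set described here held 38 imprinted genes, chosen by name, and every array probe that measures genes and whose accession matched 1 of those names through RefSeq's symbols. Of the 38 genes, 37 had a probe, of 20659 gene symbols on the array, and 62 probes of 39429, and H19 had none that could be matched and was not analysed here. Of the 62 probes, 60 passed the filter on dim signals and covered all 37 genes. The other 2 were a Rasgrf1 probe that was not well above background on any of the 6 arrays and a Sfmbt2 probe that was well above it on 1 heterozygous and 1 wild-type array only. By the allele known in mouse, 14 measured genes were maternally expressed (19 probes) and 22 paternally expressed (40 probes, 38 of them kept), while Gnas (3 probes) has transcripts of either kind. Several of these genes are imprinted in only some tissues, as Ube3a is in neurons.

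RNA came from whole mouse embryos at 12 days, of 3 genotypes for STAT3-K177K180R. There were 2 homozygous mutant embryos, 2 heterozygous embryos and 2 wild-type embryos, each on 1 single-colour array. The labels state that the genotypes came from the same womb, yet speak of tumor tissue where they describe the extraction and add the word mutant to the wild-type titles, and how the allele was made is not given in the sources used here. Both homozygous arrays were on 1 slide and the 4 heterozygous and wild-type arrays on another, so the homozygous genotype and its slide cannot be told apart in any value here. Nothing states a litter or an extraction for single embryos beyond this, so p-values measure only the spread between these samples. The 75th percentile of intensity was 860 and 785 on the homozygous arrays, 1187 and 1263 on the heterozygous arrays and 1037 and 1067 on the wild-type arrays, and the median of negative control spots was 43.5 and 48 on the homozygous arrays, 27 and 26 on the heterozygous arrays and 26 and 26 on the wild-type arrays. Their part in the results was not tested. The brighter Stat3 probe read 1.38 and 1.09 in homozygous, 1.07 and 0.82 in heterozygous and 0.81 and 0.81 in wild-type embryos (adjusted p = 0.0922 for homozygous against wild type), and an altered residue cannot be seen in such a level.

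Levels are log2 intensities minus the 75th percentile of their own array, so a difference of 1 is a 2-fold change and a level can be negative. A level compares embryos within 1 probe and not probes or genes with each other. Differences are homozygous or heterozygous minus its comparison group with the standard error of limma's fit over all 6 arrays, and a probe was called higher or lower when its p-value, adjusted by Benjamini-Hochberg over all 29832 kept probes, was below 0.05.

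Homozygous embryos showed changes both ways across the imprinted set. Against wild type, 10 of the 60 probes were higher and 10 lower, which is 33.3% of them, where 27.8% of all kept probes were called (13.2% higher and 14.6% lower). The count of members was close to this background. The median difference was -0.03 over the imprinted probes and 0.08 over all probes, and the median size of a difference without its sign was 0.39 and 0.35. In 46 of the 60 probes (76.7%) the 2 homozygous values lay outside the wild-type pair, against 68.9% of all probes. Called changes of at least 2-fold were found at 5 imprinted probes, in Kcnq1ot1, Impact, Plagl1, Meg3 and Sfmbt2, and at 9.84% of all probes. An unadjusted p below 0.05 was reached at 30 imprinted probes and at 42.4% of all probes.

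These counts depended on single arrays. Without wild-type replicate 1, 1 probe was higher and 4 lower, and without wild-type replicate 2, 0 were higher and 5 lower, where 8.35% and 7.19% of all probes were called. Leaving out either heterozygous array, which enters through the shared spread, gave 7 higher and 6 lower. Without homozygous replicate 2 the counts were 6 and 8, and without homozygous replicate 1 they were 13 and 10. Background correction by normexp moved the split to 15 higher and 8 lower, while it also moved the median of all probes to 0.19, and normexp with quantile normalization gave 7 and 11. The calls at Kcnq1ot1, Meg3, Sfmbt2 and the dimmer Impact probe held in each of these fits.

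Heterozygous embryos did not differ from wild type at any imprinted probe by limma's adjusted p, and 0% of all 29832 probes were called. The smallest adjusted p among the 60 probes was 1.00. At an unadjusted p below 0.05 there were 3 imprinted probes, in Gnas, Peg10 and Rasgrf1, and 2.08% of all probes. With normexp, with the percentile or quantile normalization, 0 imprinted probes reached it. The median difference was 0.04 over the imprinted probes, and the 2 heterozygous values lay outside the wild-type pair at 14 of 60 (23.3%), against 26.5% of all probes. A fit of the 4 arrays of their shared slide alone also called 0.

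Against heterozygous embryos, 4 imprinted probes were higher and 9 lower in homozygous embryos (21.7%), where 22.8% of all probes were called (9.59% higher and 13.2% lower). This comparison shares its homozygous arrays with the one against wild type. Both higher Plagl1 probes, Calcr and 1 Ppp1r9a probe were the 4 higher ones. An unadjusted p below 0.05 was reached at 27 imprinted probes, against 39.1% of all probes. The 2 homozygous values lay outside the heterozygous pair at 42 of 60 probes, 22 of them higher, where this held for 62.9% of all probes and 34.4% were higher. Called changes of at least 2-fold numbered 4, against 8.33% of all probes. The 9 lower ones lay in Kcnq1ot1, Meg3, Impact (2 probes), Plagl1, Ppp1r9a, Sfmbt2, Peg10 and Zdbf2. Without heterozygous replicate 1 the counts were 0 higher and 2 lower, in Kcnq1ot1 and Meg3, and without heterozygous replicate 2 they were 1 and 5. Without homozygous replicate 1 they were 10 and 10, and without either wild-type array the higher count was 1. Of the 13 calls, those at Kcnq1ot1 and Meg3 held whichever array was left out.

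**Figure D1:**
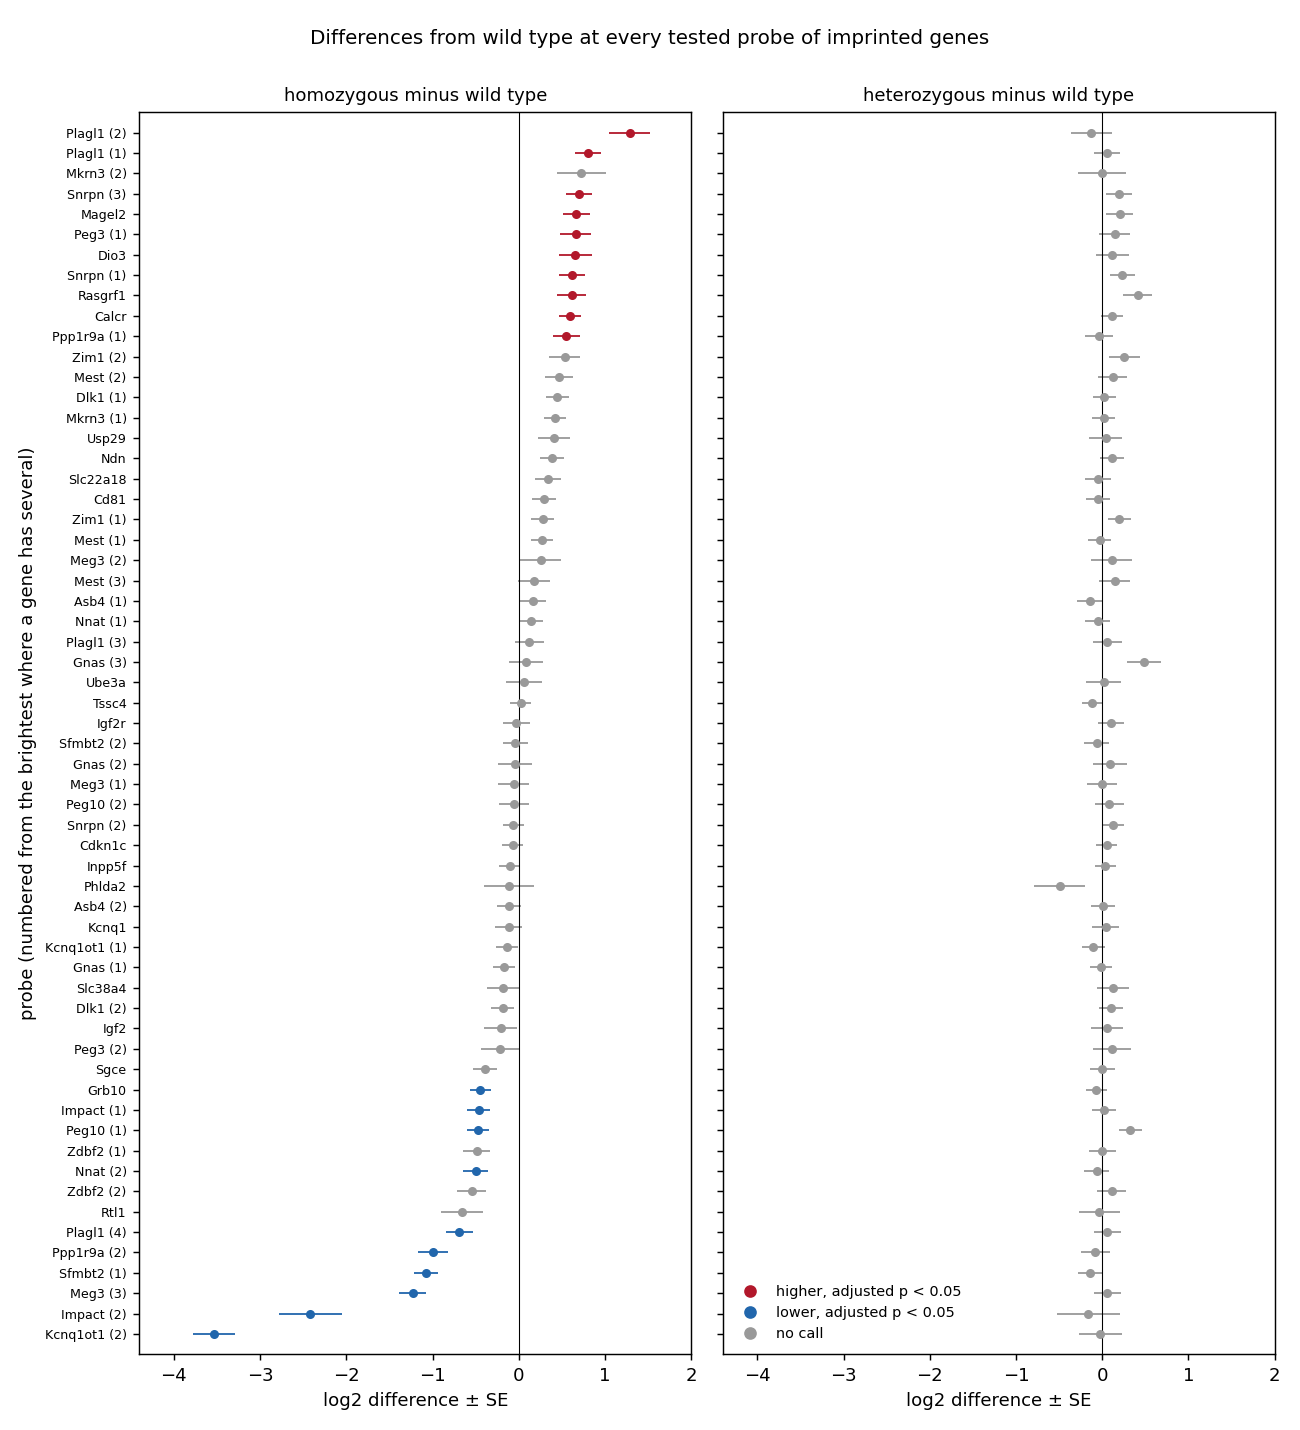
Difference in log2 intensity for each of the 60 kept imprinted probes, homozygous minus wild type and heterozygous minus wild type, ordered by the first, with bars of 1 standard error from limma's fit (2 embryos a genotype). Red and blue points are the 10 higher and 10 lower calls of homozygous embryos against wild type, and all heterozygous points are grey, not called, with a median of 0.04.

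Maternally and paternally expressed genes both held higher and lower probes in homozygous embryos. Of the 19 probes of maternally expressed genes, 2 were higher (Calcr and 1 Ppp1r9a probe) and 3 lower (1 probe each of Meg3, Ppp1r9a and Grb10), with a median difference from wild type of 0.03. Of the 38 kept probes of paternally expressed genes, 8 were higher and 7 lower, with a median of -0.05. None of the 3 Gnas probes was called. The shares called were 26.3% and 39.5%, where 27.8% of all probes were called (13.2% higher and 14.6% lower). The difference between the 2 shares was not tested. Against heterozygous embryos, maternally expressed genes had 2 higher and 2 lower probes and paternally expressed genes 2 higher and 7 lower. In that comparison 22.8% of all probes were called (9.59% higher and 13.2% lower).

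**Figure D2:**
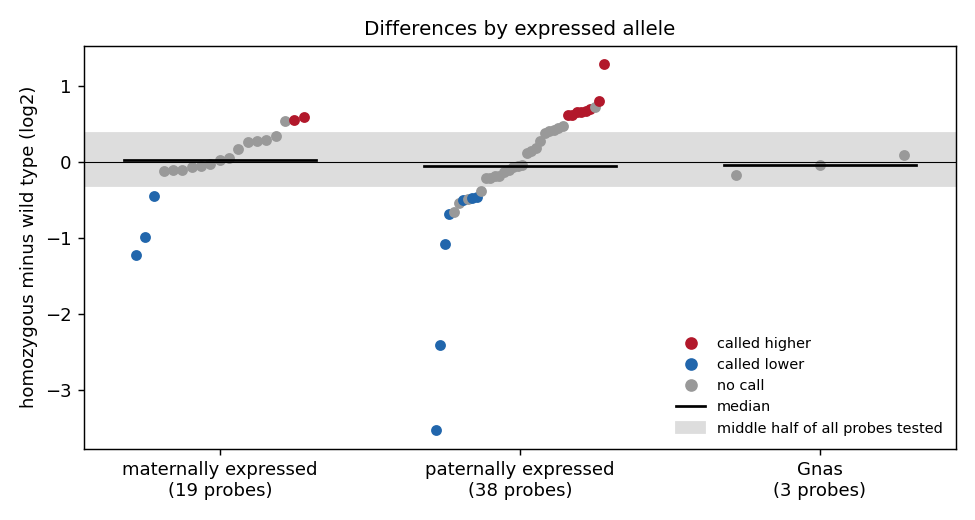
Difference in log2 intensity, homozygous minus wild type, of each kept probe by expressed allele (maternal 19, paternal 38, Gnas 3), 1 point a probe, red where called higher, blue where called lower and grey elsewhere, with a line at the median and a band over the middle of all tested probes (-0.31 to 0.38). Both allele classes spread to either side of 0, with medians of 0.03 and -0.05.

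By chromosomal domain the numbers of probes were small, and their counts are to be read against the 27.8% of all probes called (13.2% higher and 14.6% lower). The Ndn-Snrpn-Ube3a domain, the mouse counterpart of the Prader-Willi and Angelman region, had 3 higher and 0 lower of 8 probes, and a median difference from wild type of 0.52. The Peg3 domain had 1 higher and 0 lower of 5 (median 0.41). Both the Dlk1-Meg3 domain (7 probes, median -0.06) and the Peg10-Sgce domain (8 probes, median -0.09) held calls in both directions. In the joined H19/Igf2 and Kcnq1 domain, 1 of 9 probes was called, in Kcnq1ot1, and the median was -0.11. The 12 genes outside these domains had 3 higher and 6 lower of 23 probes.

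Kcnq1ot1, Plagl1 and Meg3 were among the genes with called changes of at least 2-fold, and the promoter windows of these 3 genes are shown. Each is the 250 bases before the RefSeq transcription start, read 5′ to 3′ on the strand of the gene, from RefSeq's GRCm38.p6 table, with every CpG in capitals because methylation of CpGs carries the imprint.
Plagl1, chr10:13090582-13090831, plus strand: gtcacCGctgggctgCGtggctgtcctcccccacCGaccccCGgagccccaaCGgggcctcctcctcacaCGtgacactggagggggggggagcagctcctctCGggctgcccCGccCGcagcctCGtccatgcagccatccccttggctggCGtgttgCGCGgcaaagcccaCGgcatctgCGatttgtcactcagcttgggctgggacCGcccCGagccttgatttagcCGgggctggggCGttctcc
Kcnq1ot1, chr7:143296548-143296797, minus strand: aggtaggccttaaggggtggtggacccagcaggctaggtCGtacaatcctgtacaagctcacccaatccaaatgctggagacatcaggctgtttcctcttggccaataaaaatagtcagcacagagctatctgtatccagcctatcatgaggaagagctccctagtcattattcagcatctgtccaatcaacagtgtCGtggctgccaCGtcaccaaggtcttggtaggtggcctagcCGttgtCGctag
Meg3, chr12:109540746-109540995, plus strand: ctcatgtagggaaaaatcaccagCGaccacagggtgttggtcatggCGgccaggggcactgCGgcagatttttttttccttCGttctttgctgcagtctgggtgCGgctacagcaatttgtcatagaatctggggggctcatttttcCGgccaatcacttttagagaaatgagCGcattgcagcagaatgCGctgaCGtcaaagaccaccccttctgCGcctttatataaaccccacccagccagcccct
These windows hold 19 CpGs for Plagl1, 5 for Kcnq1ot1 and 10 for Meg3, which has a second window, at a start further downstream, with 0 CpGs. Windows were found for 31 of the 38 genes, 51 in all, and their median was 10 CpGs and 60% GC, against 6 CpGs and 52.4% GC over 32851 windows of all genes. The letters TGCCGC, the methylated motif read by the imprint keeper ZFP57, stood on either strand in 7 imprinted windows (13.7%), 2 of them overlapping Mest windows and the others in Calcr, Meg3, Plagl1, Zdbf2 and Zim1, against 8.68% of all windows. The letters TTCNNNGAA, the site form that STAT factors bind, read the same on both strands and stood in 2 imprinted windows (3.92%), of Inpp5f and Zdbf2, against 7.02% of all. A match describes these letters only, and methylation and binding were not measured.

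Kcnq1ot1, the paternally expressed antisense RNA that silences neighbouring genes in cis, fell at 1 of its 2 probes. Probe A_55_P2196922 read -3.97 and -4.64 in homozygous embryos, -0.60 and -0.98 in heterozygous embryos and -0.76 and -0.78 in wild-type embryos. The 2 homozygous embryos stood apart from the other 4, with a difference from wild type of -3.53 ± 0.25 (SE, limma, adjusted p = 0.000737), an 11.6-fold lower signal. Against heterozygous embryos the difference was -3.51 (adjusted p = 0.000800). Leaving out single arrays gave -3.87 to -3.20, and normexp gave -2.42. The other probe, A_55_P2408415, read 0.27 and 0.23 in homozygous, 0.38 and 0.20 in heterozygous and 0.36 and 0.42 in wild-type embryos (-0.14, adjusted p = 0.461). Both probes carry the same RefSeq accession on the array. Those members of this set that Kcnq1ot1 is known to silence in its domain were not called: Cdkn1c differed from wild type by -0.07, Kcnq1 by -0.12, Phlda2 by -0.11, Slc22a18 by 0.34, Cd81 by 0.29 and Tssc4 by 0.03. Ascl2, an imprinted gene of the domain outside this set, was higher by 1.11 (limma, adjusted p = 0.00288). A link of these values to Kcnq1ot1 was not tested.

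Meg3, the maternally expressed noncoding RNA of the Dlk1 domain, also fell at 1 probe of several. Probe A_52_P196568 read -1.24 and -0.90 in homozygous embryos, 0.18 and 0.27 in heterozygous embryos and 0.20 and 0.12 in wild-type embryos. Homozygous values lay below those of all other embryos, while heterozygous and wild-type values overlapped. The difference was -1.23 ± 0.16 from wild type (limma, adjusted p = 0.00373) and -1.29 from heterozygous embryos (adjusted p = 0.00374). Leaving out single arrays gave -1.40 to -1.06 from wild type. The brightest Meg3 probe, A_51_P455997, read 4.86 and 4.55 in homozygous, 4.91 and 4.62 in heterozygous and 4.88 and 4.65 in wild-type embryos, so the 3 genotypes overlapped. A further probe, A_55_P2033407, read 1.53 and 2.24 in homozygous, 1.77 and 1.71 in heterozygous and 1.72 and 1.54 in wild-type embryos (0.26 from wild type, not called). The probe that fell is annotated to another Meg3 transcript than these 2.

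Plagl1, a paternally expressed zinc finger transcription factor that regulates other imprinted genes, moved in opposite directions at different probes. The brightest, A_55_P1961968, read 5.86 and 6.16 in homozygous embryos, 5.32 and 5.20 in heterozygous embryos and 5.25 and 5.16 in wild-type embryos, a difference of 0.81 ± 0.15 from wild type (adjusted p = 0.0128) and 0.75 from heterozygous embryos (adjusted p = 0.0186). At probe A_52_P532456 the levels were 5.72 and 6.0 in homozygous, 4.15 and 4.74 in heterozygous and 4.74 and 4.41 in wild-type embryos, and the difference from wild type was 1.28 ± 0.24 (adjusted p = 0.0119), 2.44-fold higher. Both homozygous embryos were above all other embryos at these 2 probes. Probe A_55_P1961965 went the other way, with -2.63 and -2.69 in homozygous, -1.75 and -2.08 in heterozygous and -1.94 and -2.01 in wild-type embryos (-0.69 ± 0.15, adjusted p = 0.0220). The fourth probe, A_55_P2153251, read -1.19 and -0.85 in homozygous, -1.0 and -1.18 in heterozygous and -1.07 and -1.23 in wild-type embryos and was not called. All 4 probes carry the same accession. Without wild-type replicate 2, the adjusted p was 0.104 at the brightest probe (0.76), 0.0866 at the second (1.12) and 0.117 at the one that fell (-0.72), and without wild-type replicate 1 it was 0.0739 at the brightest (0.85) and 0.135 at the one that fell (-0.65).

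**Figure D3:**
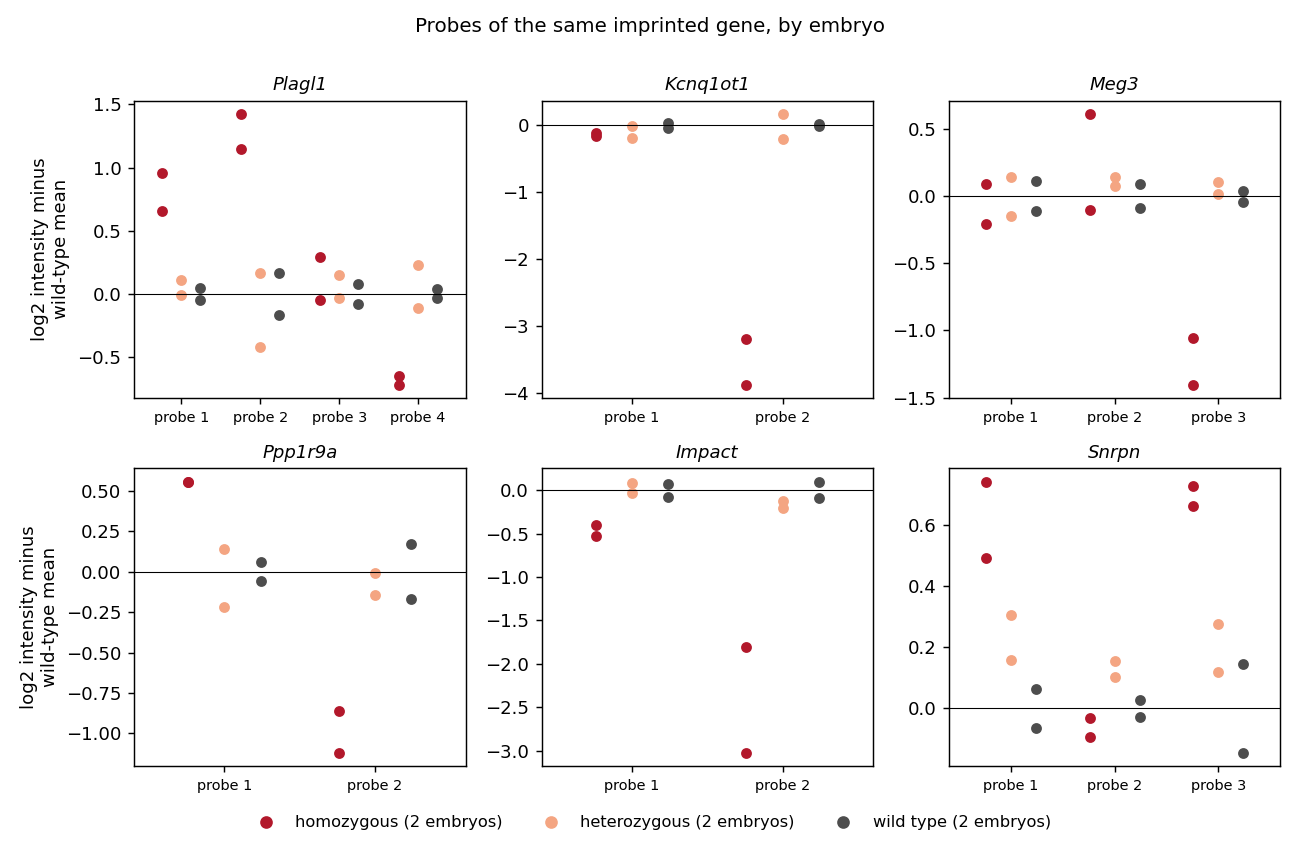
Log2 intensity of each embryo minus the wild-type mean, for every kept probe of Plagl1, Kcnq1ot1, Meg3, Ppp1r9a, Impact and Snrpn, numbered from the brightest, with homozygous, heterozygous and wild-type embryos in that order. Probes of the same gene separate the homozygous embryos to different extents, and in Plagl1 and Ppp1r9a to both sides of wild type.

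Disagreement between probes of a gene was common. Of 17 imprinted genes with at least 2 kept probes, 1 (Impact) had all its probes called in the same direction, 7 had some called (Kcnq1ot1, Meg3, Nnat, Peg10, Peg3, Sfmbt2 and Snrpn), 2 had calls in opposite directions (Plagl1 and Ppp1r9a) and 7 had none. Among all 4423 genes with at least 2 kept probes these shares were 3.62%, 38.1%, 3.89% and 54.4%, against 5.88%, 41.2%, 11.8% and 41.2% here. The median spread between a gene's lowest and highest homozygous minus wild-type difference was 0.64 over the 17 genes and 0.48 over all, and for heterozygous minus wild type it was 0.10 and 0.09. Probe positions within transcripts were not used here.

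Of the ligands, receptors and growth inhibitors, Grb10 and Calcr were called. Igf2, the main fetal growth factor of the set, read 2.78 and 2.47 in homozygous embryos, 3.10 and 2.69 in heterozygous embryos and 2.88 and 2.79 in wild-type embryos, a difference of -0.21 ± 0.19 from wild type (adjusted p = 0.429). Igf2r, the receptor that removes Igf2, read 3.44 and 3.63 in homozygous, 3.79 and 3.53 in heterozygous and 3.61 and 3.51 in wild-type embryos (-0.03). Neither was called. Both homozygous Igf2 values lay below the wild-type pair, as at 30.5% of all probes, while those of Igf2r overlapped it. Grb10, a maternally expressed adaptor that dampens insulin and IGF receptor signalling, was lower, with -0.52 and -0.53 in homozygous, -0.08 and -0.21 in heterozygous and -0.08 and -0.08 in wild-type embryos (-0.45 ± 0.12, adjusted p = 0.0419). That call was lost when any 1 of the 6 arrays was left out, with differences of -0.45 to -0.44 and adjusted p up to 0.218.

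Cdkn1c, an inhibitor of cyclin-dependent kinases, read 4.58 and 4.66 in homozygous embryos, 4.78 and 4.70 in heterozygous embryos and 4.71 and 4.67 in wild-type embryos and was not called. Phlda2, which restrains placental growth, ranged more among embryos than between genotypes, with -0.45 and -1.0 in homozygous, -1.05 and -1.17 in heterozygous and -1.0 and -0.23 in wild-type embryos. Dlk1, a transmembrane relative of Notch ligands, read 5.79 and 5.74 in homozygous, 5.44 and 5.24 in heterozygous and 5.35 and 5.29 in wild-type embryos at its brighter probe. That difference was 0.45 with an adjusted p of 0.0510, just outside the threshold. Its second probe read 3.19 and 3.19 in homozygous, 3.56 and 3.40 in heterozygous and 3.46 and 3.29 in wild-type embryos (-0.19, not called), so the 2 probes pointed in opposite directions.

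Calcr, the calcitonin receptor, was higher, with -3.21 and -3.05 in homozygous embryos, -3.62 and -3.61 in heterozygous embryos and -3.68 and -3.76 in wild-type embryos (0.59 ± 0.13, adjusted p = 0.0198 against wild type, and 0.48, adjusted p = 0.0418 against heterozygous embryos). Without wild-type replicate 1 or 2 the differences from wild type were 0.64 and 0.55, with adjusted p = 0.108 and 0.152. Against heterozygous embryos the call was lost in each fit without 1 array except that without homozygous replicate 1, with differences of 0.41 to 0.56. Quantile normalization after normexp gave 0.29 from wild type, still called. The brightest probe of Gnas, which encodes the stimulatory G protein alpha subunit, read 5.55 and 5.62 in homozygous, 5.79 and 5.68 in heterozygous and 5.80 and 5.71 in wild-type embryos. The other Gnas probes read 0.95 and 0.47 in homozygous, 0.91 and 0.77 in heterozygous and 0.61 and 0.89 in wild-type embryos, and -5.59 and -5.51 in homozygous, -4.98 and -5.32 in heterozygous and -5.42 and -5.86 in wild-type embryos. None of the 3 was called in a comparison. Rasgrf1, an exchange factor for Ras, read -4.07 and -4.44 in homozygous, -4.41 and -4.51 in heterozygous and -4.77 and -4.97 in wild-type embryos (0.62 ± 0.17 from wild type, adjusted p = 0.0389). Its call was lost without homozygous replicate 1 and without each heterozygous or wild-type array, with differences of 0.43 to 0.80 and adjusted p up to 0.224, and quantile normalization after normexp gave 0.31.

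**Figure D4:**
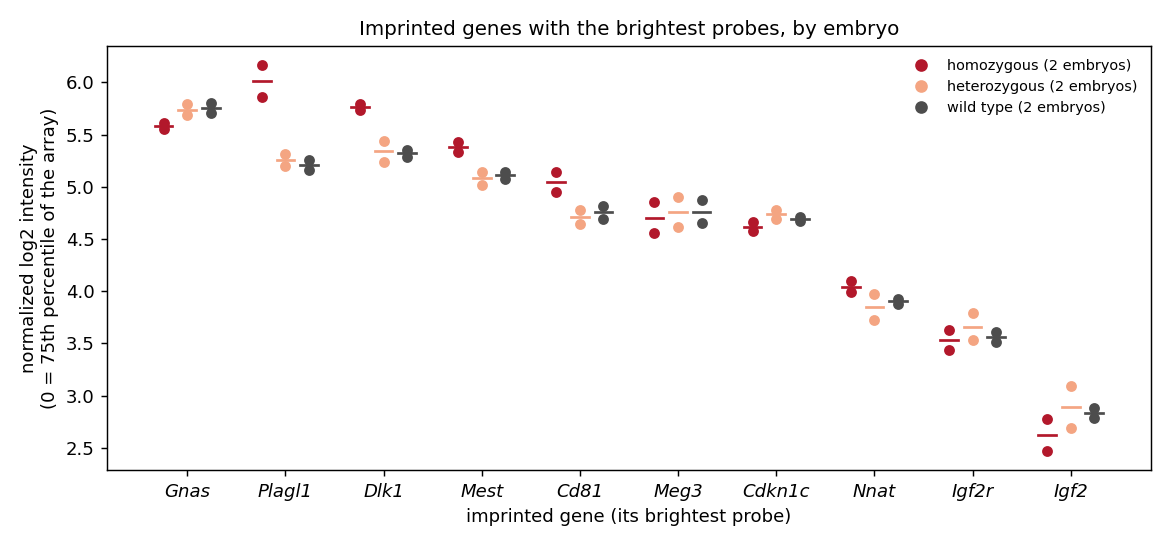
Log2 intensity minus the 75th percentile of the array, per embryo, at the brightest probe of the 10 imprinted genes with the highest mean signal, with homozygous, heterozygous and wild-type embryos in that order. Of these probes only that of Plagl1 was called, with homozygous embryos at 5.86 and 6.16 above the other 4.

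In the Ndn-Snrpn-Ube3a domain, Snrpn and Magel2 had higher probes, and Ndn, Mkrn3 and Ube3a were not called. Snrpn, which encodes a spliceosomal Sm protein, was higher at 2 of 3 probes. At A_52_P354390 the levels were 0.15 and 0.40 in homozygous embryos, -0.18 and -0.03 in heterozygous embryos and -0.28 and -0.40 in wild-type embryos (0.62 ± 0.15 from wild type, adjusted p = 0.0269). At A_55_P1990116 they were -2.77 and -2.83 in homozygous, -3.38 and -3.22 in heterozygous and -3.64 and -3.35 in wild-type embryos (0.70 ± 0.15, adjusted p = 0.0200). Heterozygous values lay between the others at the first probe and overlapped wild type at the second, where quantile normalization after normexp gave 0.45. The differences from heterozygous embryos, 0.39 and 0.50, were not called. The remaining probe, A_55_P1998194, read -0.74 and -0.80 in homozygous, -0.61 and -0.55 in heterozygous and -0.73 and -0.68 in wild-type embryos (-0.06 from wild type).

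Magel2, a partner of ubiquitin ligases, read 1.74 and 1.54 in homozygous embryos, 1.30 and 1.04 in heterozygous embryos and 0.90 and 1.05 in wild-type embryos (0.67 ± 0.16, adjusted p = 0.0253). Among its paternally expressed neighbours, Ndn differed from wild type by 0.38 (adjusted p = 0.0853), and the Mkrn3 probes by 0.42 (adjusted p = 0.0555) and 0.73 (adjusted p = 0.0987). Ube3a, the maternally expressed ubiquitin ligase of the domain, differed by 0.06. Without wild-type replicate 1 the Magel2 difference was 0.59 (adjusted p = 0.161) and without replicate 2 it was 0.74 (adjusted p = 0.109). The Snrpn calls also missed the threshold without wild-type replicate 1 (0.68, adjusted p = 0.112, and 0.55, adjusted p = 0.147) and without replicate 2 (0.55, adjusted p = 0.177, and 0.84, adjusted p = 0.0656), and the brighter of these Snrpn probes also without homozygous replicate 2 (0.49, adjusted p = 0.0542). Against heterozygous embryos 0 of the 8 probes of this domain were called by limma, where 22.8% of all probes were. An unadjusted p below 0.05 was reached at 5 of the 8, against 39.1% of all probes.

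Among transcription factors and chromatin proteins, Sfmbt2 and Peg3 were called besides Plagl1. Sfmbt2, a Polycomb group protein, fell at probe A_55_P1956652, with -2.94 and -2.88 in homozygous embryos, -1.85 and -2.10 in heterozygous embryos and -1.88 and -1.79 in wild-type embryos (-1.08 ± 0.14, adjusted p = 0.00412, and -0.93 against heterozygous embryos, adjusted p = 0.00748). Leaving out single arrays gave -1.12 to -1.03 from wild type and normexp gave -0.70, and the call held in each case. Its other kept probe, A_55_P1956647, read -3.39 and -3.43 in homozygous, -3.29 and -3.59 in heterozygous and -3.39 and -3.36 in wild-type embryos, a difference of -0.04 that was not called. The 2 Sfmbt2 probes are annotated to different transcripts. Peg3, a zinc finger protein, was higher at probe A_52_P235861, with 0.15 and 0.58 in homozygous, -0.06 and -0.24 in heterozygous and -0.25 and -0.34 in wild-type embryos (0.66 ± 0.18, adjusted p = 0.0382). Its second probe read -3.27 and -2.67 in homozygous, -2.73 and -2.56 in heterozygous and -2.66 and -2.85 in wild-type embryos (-0.22, not called). The Peg3 call was lost in each fit without 1 array except that without homozygous replicate 1, with differences of 0.44 to 0.88 and adjusted p up to 0.194, and with quantile normalization after normexp (0.50, adjusted p = 0.0797). Its neighbours Usp29 (0.41) and Zim1 (0.28 and 0.53) were not called.

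Impact, which relieves translational control by the kinase GCN2, was lower at both of its probes. At A_66_P108138 the levels were -6.59 and -5.38 in homozygous embryos, -3.70 and -3.78 in heterozygous embryos and -3.67 and -3.48 in wild-type embryos (-2.42 ± 0.36, adjusted p = 0.00633). A single homozygous array was not well above background there, so the size of this difference is uncertain: it was -3.02 without homozygous replicate 2, -1.81 without homozygous replicate 1 and -0.63 with normexp. At A_51_P483220 the levels were 0.67 and 0.80 in homozygous, 1.16 and 1.28 in heterozygous and 1.27 and 1.12 in wild-type embryos (-0.46 ± 0.13, adjusted p = 0.0464). At both probes the homozygous values lay below those of all other embryos. The call at the brighter one was lost in each fit without 1 array except that without homozygous replicate 2, with differences of -0.54 to -0.39 and adjusted p up to 0.264, and with normexp (-0.35, adjusted p = 0.0563).

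Ppp1r9a, which encodes the actin-binding neurabin, had 1 probe higher and 1 lower. Probe A_52_P239536 read 1.12 and 1.12 in homozygous embryos, 0.71 and 0.35 in heterozygous embryos and 0.62 and 0.51 in wild-type embryos (0.55 ± 0.16, adjusted p = 0.0461). Probe A_52_P159490 read -4.85 and -5.11 in homozygous, -4.0 and -4.14 in heterozygous and -3.82 and -4.16 in wild-type embryos (-0.99 ± 0.17, adjusted p = 0.00997). Both homozygous embryos stood outside the other 4 at each probe, on opposite sides. The call at the higher probe was lost without either homozygous or either wild-type array, with differences of 0.50 to 0.61 and adjusted p up to 0.236, and with quantile normalization after normexp (0.41, adjusted p = 0.0578). At the lower probe the call ended with normexp (-0.15, adjusted p = 0.339) and, at -0.82 (adjusted p = 0.0752), when wild-type replicate 1 was left out.

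The retrotransposon-derived Peg10, needed for the placenta in mice, fell at 1 of 2 probes. Probe A_52_P377723 read -3.56 and -3.40 in homozygous embryos, -2.62 and -2.74 in heterozygous embryos and -3.01 and -3.0 in wild-type embryos, -0.47 ± 0.13 from wild type (adjusted p = 0.0413) and -0.80 ± 0.13 from heterozygous embryos (adjusted p = 0.00993). Heterozygous values were the highest of the 3 genotypes at this probe. The other probe read -3.70 and -3.76 in homozygous, -3.37 and -3.81 in heterozygous and -3.71 and -3.63 in wild-type embryos and was not called. Against wild type the call was lost in each fit without 1 array except that without homozygous replicate 2, with differences of -0.55 to -0.39 and adjusted p up to 0.214, and with normexp (-0.16, adjusted p = 0.290). Rtl1, also retrotransposon-derived, was not well above background on either homozygous array. In the main fit its signal was lower than in wild type by at least 1.20-fold, set against the lowest signal well above background. The bound against heterozygous embryos was 1.17-fold, and neither difference was called (limma, adjusted p = 0.0853 and 0.107). Normexp turned the Rtl1 difference to 0.13 from wild type and to 0.29 from heterozygous embryos, so the direction is not settled.

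Of the enzymes and membrane proteins, Dio3 and Nnat had a called probe. Dio3, which inactivates thyroid hormone, read -4.81 and -4.31 in homozygous embryos, -5.13 and -5.06 in heterozygous embryos and -5.14 and -5.29 in wild-type embryos (0.66 ± 0.19, adjusted p = 0.0459), and the call was lost in each fit without 1 array except that without homozygous replicate 1 (0.41 to 0.91, adjusted p up to 0.225) and with normexp and quantile normalization (0.25, adjusted p = 0.0962). Nnat, a small membrane protein of neural and endocrine cells, was lower at its dimmer probe, with 2.32 and 2.11 in homozygous, 2.76 and 2.54 in heterozygous and 2.67 and 2.76 in wild-type embryos (-0.50 ± 0.15, adjusted p = 0.0493). At its brighter probe the levels were 4.09 and 3.99 in homozygous, 3.97 and 3.72 in heterozygous and 3.88 and 3.93 in wild-type embryos (0.14), so the lower level was not seen there. The call at the dimmer probe was lost in each fit without 1 array except that without homozygous replicate 1, with differences of -0.60 to -0.40 and adjusted p up to 0.251.

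Mest, a hydrolase-fold protein known for promoting growth, read 5.43 and 5.33 in homozygous embryos, 5.14 and 5.02 in heterozygous embryos and 5.15 and 5.08 in wild-type embryos at its brightest probe (0.27, not called). Its other probes read 3.74 and 4.06 in homozygous, 3.47 and 3.64 in heterozygous and 3.55 and 3.32 in wild-type embryos (0.47, adjusted p = 0.0832), and 0.38 and 0.85 in homozygous, 0.52 and 0.64 in heterozygous and 0.44 and 0.44 in wild-type embryos (0.18). All 3 differences were positive and none passed the threshold. Cd81, a tetraspanin, read 5.15 and 4.95 in homozygous, 4.77 and 4.65 in heterozygous and 4.70 and 4.82 in wild-type embryos (0.29, not called). Zdbf2, a zinc finger protein, was called only against heterozygous embryos, at probe A_51_P213725, with -5.59 and -5.85 in homozygous, -5.05 and -5.08 in heterozygous and -5.34 and -5.0 in wild-type embryos (-0.65, adjusted p = 0.0381). The probe was not well above background in 1 homozygous embryo, and the call was lost in each fit without 1 array except that without homozygous replicate 1, with adjusted p up to 0.157. The other Zdbf2 probe read -4.33 and -4.62 in homozygous, -3.90 and -4.09 in heterozygous and -4.05 and -3.93 in wild-type embryos and was not called. The remaining genes, Sgce (-0.39), Slc38a4 (-0.18), Inpp5f (-0.10) and Asb4 (0.17 and -0.11), differed from wild type by amounts that did not pass the test.

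Proteins that set or read imprints were described from a list of 25 genes with 38 kept probes. In homozygous embryos 7 probes were higher and 3 lower than in wild type (26.3%, against 27.8% of all probes), with a median of 0.00, and in heterozygous embryos none was called. Dnmt1, the maintenance DNA methyltransferase, had 1 kept probe, lower by -0.77 ± 0.13 (adjusted p = 0.00829), and Dnmt3a, a de novo methyltransferase, had 1, higher by 0.59 ± 0.13 (adjusted p = 0.0200). Arid4b, a chromatin protein, was lower by -1.78 ± 0.26 at its only kept probe (adjusted p = 0.00594). Atrx, a chromatin remodeller, was lower by -1.07 at 1 of 3 probes (adjusted p = 0.00335), and its highest difference was 0.05. The higher probes besides Dnmt3a lay in Eed (0.61), Ezh2 (0.44), Tet2, Smchd1 and Ehmt1 (1 of 2 probes each) and Arid4a (1 of 3). Of the IGF pathway outside the imprinted set, 29 kept probes of 20 genes gave 3 higher and 6 lower (31.0%), with a median of 0.00. The 3 higher probes lay in Igfbp6 (1.09), Akt1 (0.87) and Igf2bp2 (0.46 at 1 of 2 probes). Igf1 differed by -1.05 ± 0.13 at its lowest of 4 probes (limma, adjusted p = 0.00383) and by 0.39 at its highest. Igfbp4, a binding protein, differed by -1.18 ± 0.16 (adjusted p = 0.00434). The largest difference of this list was -2.88, at the only kept probe of Igfbp7, which was called lower. Pappa, a protease of IGF binding proteins, differed by -0.88 (limma, adjusted p = 0.00771). The called probe of Pappa2, a related protease, was not well above background on either homozygous array, and its other probe differed by 0.17.

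Many imprinted genes are strong in placenta, so trophoblast and decidua markers were read in the same arrays. Of 18 listed genes, 17 had a probe and 9 had a kept one, and Tpbpa, Prl8a9, Prl7b1, Prl8a2, Cts7, Ctsj, Ctsq and Psg21 had none above the filter. The summed level of the 11 kept probes, in multiples of the array's 75th percentile, was 40.9 and 27.8 in homozygous embryos, 124 and 88.0 in heterozygous embryos and 108 and 121 in wild-type embryos. Of these, 2 probes were higher and 5 lower in homozygous embryos than in wild type (63.6%, against 27.8% of all probes). The 3 kept probes of Gcm1, a trophoblast transcription factor, differed by -2.21, -3.23 and -2.29. Synb, a syncytin, differed by -1.02 at its kept probe (adjusted p = 0.00628) and Syna by -0.77 (adjusted p = 0.00963). Syna was well above background on only 4 of the 6 arrays, with its lowest levels, -6.37 and -6.44, in homozygous embryos. The size of its difference is therefore uncertain. Ascl2, a trophoblast transcription factor that is itself imprinted, went the other way by 1.11 (adjusted p = 0.00288), and Prl3d1, a giant cell hormone, by 0.77 at its kept probe (adjusted p = 0.0371). A further probe each of Gcm1, Synb and Prl3d1 was not well above background on any array and was not tested. Without Gcm1 the sum was 15.6 and 16.9 in homozygous, 17.1 and 15.4 in heterozygous and 14.2 and 14.9 in wild-type embryos. Most of that sum was the single Dcn probe, at 3.86 and 3.99 in homozygous, 4.00 and 3.84 in heterozygous and 3.72 and 3.80 in wild-type embryos. The other probes in it had negative levels, so their changes in either direction hardly show in the sum. Fetal hepatocyte markers had 4 of 11 probes higher and 0 lower in homozygous embryos than in wild type (36.4%), with sums of 246 and 231 in homozygous, 138 and 171 in heterozygous and 160 and 151 in wild-type embryos. Erythroid markers had 0 calls among 9 probes by limma (1 at an unadjusted p below 0.05), muscle markers 1 higher and 1 lower of 12 (16.7%), neural markers 0 higher and 1 lower of 11 (9.09%), and mesenchyme and cartilage markers 0 higher and 2 lower of 9 (22.2%). The part of these markers in the imprinted genes' values was not tested, and in whole embryos fewer cells of a type and less RNA per cell cannot be told apart.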

How the data were processed

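Total RNA of 6 whole embryos, 2 of each genotype taken from the sample titles, was amplified, labelled with Cy3 and hybridised to 1-colour Agilent arrays, per the labels' protocols. Per the file headers, the deposited intensity values come from Feature Extraction 11.0.1.1, background-subtracted within each array and not scaled between arrays. A second deposited table, of log2 values by the authors with a median of 6.72 in every array, has a normalization that is not given in the sources used here. It correlated at 0.995 or more with the intensities and served as an alternative.

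Each array held 43020 gene spots and 1377 control spots, none saturated. Control and outlier spots were left out, and spots of a probe were averaged to 39429 probes. The log2 processed intensity minus the array's 75th percentile was used, with no pseudocount. A probe was kept if it had a value on all 6 arrays and 1 genotype or more in which both arrays read well above background (29832). A RefSeq table of GRCm38.p6, used for names, named 27234 probes (69.1%), and the array was annotated to mm9. Genotype was fitted over all 6 arrays with limma 3.58.1 in R 4.3.3 (lmFit, eBayes; 3 residual and 3.38 prior degrees of freedom), and p-values were adjusted by Benjamini-Hochberg within each of 3 comparisons. The code was tested on simulated data.

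Alternatives were normexp (offset 50, on spot and background medians) with the percentile or quantile normalization, the authors' log2 table, no filter or a stricter one, the brightest probe of each gene, a replicate block and leaving out each array. Replicate numbers were not tied to litters, and the number of arrays limits the precision. The members, gene lists and tests were chosen with earlier results of these data known. Every member was accounted for, with values per embryo for the brightest probe of the 10 brightest members, for each called probe and for other probes of those genes. Of the gene lists, up to 4 probes with the smallest p could be named. Syna, Prl3d1, the third Gcm1 probe and the higher Igfbp6, Akt1 and Igf2bp2 probes were added after their values were seen. So were Dcn, Igfbp7 and the higher imprint regulators other than Dnmt3a.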

Additional observations from a re-analysis of the deposited data

How the results depend on the processing

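The imprinted counts moved with the processing. For homozygous against wild-type embryos, 10 higher and 10 lower became 5 and 6 without the filter on dim probes, the lower count became 4 with only the brightest probe of each gene (37 probes), and leaving out single arrays gave 0 to 13 higher and 4 to 10 lower. For homozygous against heterozygous embryos, 4 higher and 9 lower became 14 higher with normexp and the 75th percentile, where the median of all probes moved to 0.24, 2 higher without the filter, and 3 lower with the brightest probes. Leaving out single arrays gave 0 to 10 higher and 2 to 10 lower. Apart from the replicate block, other settings kept these counts within 1.5 times, and heterozygous against wild type gave 0 in each. Normexp also turned the sign of some differences. These were 7 for homozygous against wild type, 9 for homozygous against heterozygous and 10 for heterozygous against wild type. In homozygous against wild type they included Zdbf2 (-0.54 to 0.15) and Rtl1 (-0.66 to 0.13), not called either way. The turned differences with a call were of homozygous against heterozygous embryos. They went to 0.21 for a Zdbf2 probe (-0.65 before, called then and not after) and to 0.36 for Inpp5f (-0.14 before, called only after). The cause was not tested. With the replicate number as a block, homozygous against wild type gave 8 higher and 6 lower and homozygous against heterozygous 3 and 7. Same-numbered embryos did not deviate together in all pairs of genotypes (correlations 0.29, -0.16 and -0.00), so the numbers were not taken as a pairing. Signals near background limit the dimmest probes, of which Impact, Rtl1 and Zdbf2 had 1 each not well above it on both homozygous arrays.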
